A study of Rattus norvegicus with 8 samples.

Results

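The genes that make cholesterol and fatty acids were followed in rat lung during hypobaric hypoxia, the low air pressure of high altitude. A probe belonged to the set if its gene name in the scanner files equals 1 of 33 names of enzymes and regulators of these pathways. The rule found 48 of 41012 probes, which stand for 31 genes. The names Msmo1 and Scd were not found, and the same genes are on the array under their older names Sc4mol and Scd1. All 31 genes passed the filter on dim probes, among 24141 genes tested.

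Rats were first given normal saline or cobalt, at 12.5 mg per kg body weight, over 7 days. They were then kept at the air pressure of 30000 ft for 6, 12, 24 or 48 h, and lung RNA was taken. Each of the 8 combinations was measured on 1 two-colour array of 60-base probes, with lung RNA of unexposed (0 h) rats of that pretreatment in the other channel, so each value is a log2 ratio of hypoxia over 0 h. The saline arrays lie on slide 1 and carry hypoxia RNA in Cy5. The cobalt arrays lie on slide 2 and carry it in Cy3, so the pretreatments cannot be told apart from the slides, their scans and the orientation of the dyes. Saline and cobalt values are given after loess normalization, and many differences between them turn sign when arrays are centred on their median instead, as given with that comparison. The durations of a pretreatment served as its replicates (n = 4 arrays), and the labels do not say how many animals gave each RNA, nor their strain or age. The p-values rest on how far these arrays and durations differ, and the variation of 0 h RNA between animals does not enter them. Whole lung was used, in which a change in the share of a cell type and a change of RNA per cell cannot be told apart.

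Cholesterol is built from acetyl-CoA through mevalonate, farnesyl diphosphate, squalene and lanosterol. The transcription factors SREBP-1 (Srebf1) and SREBP-2 (Srebf2) drive these genes and those of fatty acid synthesis when sterols are low. The escort protein Scap carries them out of the endoplasmic reticulum, and the Insig proteins hold Scap back when sterols are plentiful. Squalene epoxidation, the removal of methyl groups from lanosterol and fatty acid desaturation all consume molecular oxygen. In the lung, alveolar type II cells make much of the lipid of surfactant.

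On all arrays 45018 spots were read. The share of spots well above background was 57.0% to 66.6% in Cy3 and 62.8% to 72.3% in Cy5. Ratios over all genes correlated at 0.56 to 0.70 among the saline arrays, at 0.41 to 0.75 among the cobalt arrays, and at -0.10 to 0.27 between a saline and a cobalt array. All 10 markers of alveolar type II cells, a cell of the lung, passed the filter on dim probes.

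Averaged over both pretreatments, a comparison in which a dye bias common to both slides cancels, 9 of the 15 sterol enzymes were higher in hypoxia than at 0 h and none was lower. Of the 31 genes, 15 passed the test (limma, Benjamini-Hochberg adjusted p under 0.05), 11 higher and 4 lower, or 48.4%, against 32% of all genes tested (15.7% higher and 16.3% lower). Their median log2 ratio was 0.17, against -0.00 over all genes. The higher genes were 6 of the 10 enzymes from acetyl-CoA to lanosterol, 3 of the 5 from lanosterol to cholesterol, 1 of 5 regulators (Insig1) and 1 of 11 fatty acid genes (Me1). The lower genes were Srebf1, Srebf2, Elovl5 and Acacb, the last a dim gene whose direction the filter on dim probes helped to fix. The count depended on single arrays: it was 8 without the cobalt 12 h array, without the cobalt 24 h array or without the saline 24 h array. With arrays centred on their median in place of loess, 14 of the 31 passed, 11 higher and 3 lower. That centring called 47.4% of all genes tested, so the larger share among the 31 genes was not seen with it. Within the pretreatments, with loess, 1 of the 10 enzymes up to lanosterol was higher in saline and 5 in cobalt rats. Of the 5 from lanosterol to cholesterol, 1 was higher in each, and no sterol enzyme was lower in either. Of all genes tested, 21.8% were higher in saline and 8.53% in cobalt rats.

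**Figure D1:**
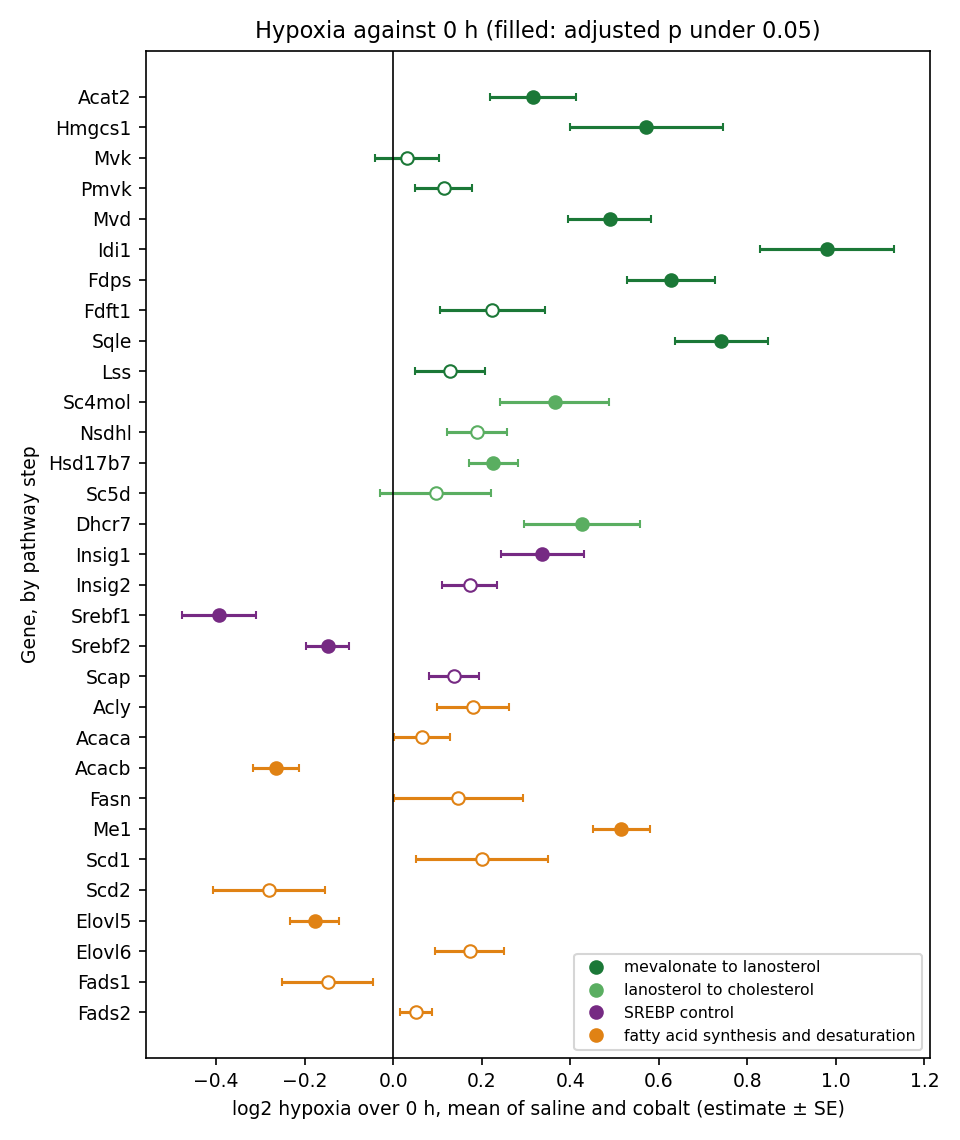
Estimates (points) and standard errors (bars) of the log2 ratio of hypoxia over 0 h, mean of saline and cobalt over 8 arrays, for 31 genes ordered by pathway step (vertical axis). Filled points passed an adjusted p under 0.05: 11 lie above 0, most of them sterol enzymes, and 4 lie below 0.

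Idi1 (isopentenyl-diphosphate isomerase, which makes dimethylallyl diphosphate, the starter unit of farnesyl diphosphate) had log2 ratios of -0.52, 0.63, 0.49 and 0.95 at 6, 12, 24 and 48 h in saline rats and of 1.07, 2.00, 1.71 and 1.50 in cobalt rats. With this probe every array but saline 6 h lay above 0, and all cobalt arrays lay above all saline arrays. With a second, dimmer probe saline 6 h was at 0.11, and the groups overlapped, with saline 48 h at 1.19 and cobalt 6 h at 0.58. Its mean of both pretreatments was 0.98 ± 0.15 (SE), a 1.97-fold higher level, with an adjusted p of 0.00153. Hmgcs1 (HMG-CoA synthase, which joins acetyl-CoA units on the way to mevalonate) had ratios of -0.87, -0.29, 0.34 and 0.70 in saline rats and of 0.59, 1.82, 1.16 and 1.12 in cobalt rats. It was below 0 on the saline arrays up to 12 h and above 0 on the other arrays, and the groups overlapped at saline 48 h and cobalt 6 h. Its mean was 0.57 ± 0.17 (SE; adjusted p = 0.0310). Fdps (farnesyl diphosphate synthase) had ratios of -0.10, 0.00, 0.45 and 0.78 in saline rats and of 0.68, 1.06, 1.22 and 0.92 in cobalt rats. The saline 48 h array reached into the cobalt range, and the mean was 0.63 ± 0.10 (SE; adjusted p = 0.00176).

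With the probes used, Sqle (squalene epoxidase, an oxygen-consuming step) was above 0 on all 8 arrays, as were Me1, Hsd17b7 and Scap, 4 of 31 against 6.74% of all genes. The ratios of Sqle were 0.49, 0.78, 0.90 and 1.38 in saline rats and 0.19, 0.87, 0.82 and 0.50 in cobalt rats. The groups overlapped widely, and the mean was 0.74 ± 0.11 (SE; adjusted p = 0.00104), a 1.67-fold higher level. Mvd (mevalonate diphosphate decarboxylase) had ratios of -0.19, 0.53, 0.22 and 0.55 in saline rats and of 0.58, 1.04, 0.68 and 0.51 in cobalt rats. Its lowest array was saline 6 h, and its mean was 0.49 ± 0.09 (SE; adjusted p = 0.00398). Acat2 (a thiolase that makes acetoacetyl-CoA) had ratios of 0.13, 0.15, 0.40 and 0.81 in saline rats and of -0.04, 0.68, 0.32 and 0.09 in cobalt rats. The groups overlapped in part, with saline 48 h above and cobalt 6 and 48 h below the other group, and the mean was 0.32 ± 0.10 (SE; adjusted p = 0.0328). The other 4 enzymes up to lanosterol did not pass the test. Mvk (mevalonate kinase) ranged from -0.38 to 0.33 over the arrays around a mean of 0.03, which was -0.09 with arrays centred on their median in place of loess. Pmvk (phosphomevalonate kinase) ranged from -0.13 to 0.42 (mean 0.11), and Fdft1 (squalene synthase) from -0.35 to 0.74 (mean 0.22). Lss (lanosterol synthase) ranged from -0.33 to 0.63 (mean 0.13).

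A second probe of Hmgcs1, Idi1 and Fdps, at another place in the transcript, gave means of 0.44, 0.82 and 0.50 (adjusted p = 0.0269, 0.00126 and 0.00332 over all probes). Their differences between cobalt and saline rats did not pass, as given with that comparison. Neither these nor any other probe of the set was saturated.

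Promoter sequences are shown for 6 genes that were higher in the mean of both pretreatments, for a reader to compare: the 250 bases before the transcription start in RefSeq's annotation of the rat assembly GRCr8, 5′ to 3′ along the gene's strand. Capitals mark CCAAT on either strand (ATTGG where it lies on the other strand), the core of the site of the factor NF-Y, which is known to work beside SREBP. Me1 is shown as a gene that rose and holds no CCAAT in this stretch.
Hmgcs1 (chr2:53382054-53382303, plus strand): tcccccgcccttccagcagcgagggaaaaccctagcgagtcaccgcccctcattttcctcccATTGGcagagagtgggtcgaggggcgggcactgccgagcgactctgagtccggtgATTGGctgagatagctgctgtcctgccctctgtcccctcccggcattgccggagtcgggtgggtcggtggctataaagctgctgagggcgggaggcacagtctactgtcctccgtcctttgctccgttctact
Idi1 (chr17:66547525-66547774, minus strand): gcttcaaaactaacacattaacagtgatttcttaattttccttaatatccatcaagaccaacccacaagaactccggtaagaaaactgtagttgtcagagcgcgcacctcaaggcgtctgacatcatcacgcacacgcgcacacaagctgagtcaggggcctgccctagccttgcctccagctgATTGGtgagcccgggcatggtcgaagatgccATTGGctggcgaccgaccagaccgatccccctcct
Fdps (chr2:176804817-176805066, minus strand): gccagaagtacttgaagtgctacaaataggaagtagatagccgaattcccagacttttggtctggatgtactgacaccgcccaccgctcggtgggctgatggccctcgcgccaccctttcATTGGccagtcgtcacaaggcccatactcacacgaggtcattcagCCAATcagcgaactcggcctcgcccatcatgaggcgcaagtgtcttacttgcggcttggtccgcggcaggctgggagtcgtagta
Sc4mol (chr16:29746863-29747112, plus strand): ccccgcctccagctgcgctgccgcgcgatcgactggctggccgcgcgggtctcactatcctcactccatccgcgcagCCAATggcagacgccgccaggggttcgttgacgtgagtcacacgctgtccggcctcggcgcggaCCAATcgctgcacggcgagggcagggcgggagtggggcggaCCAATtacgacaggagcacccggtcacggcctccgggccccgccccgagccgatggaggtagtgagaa
Insig1 (chr4:8057770-8058019, minus strand): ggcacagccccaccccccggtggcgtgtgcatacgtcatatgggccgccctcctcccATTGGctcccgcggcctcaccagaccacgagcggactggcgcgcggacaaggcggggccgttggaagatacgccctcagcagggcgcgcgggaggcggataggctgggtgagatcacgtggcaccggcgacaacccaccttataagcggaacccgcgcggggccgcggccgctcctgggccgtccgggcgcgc
Me1 (chr8:96540245-96540494, minus strand): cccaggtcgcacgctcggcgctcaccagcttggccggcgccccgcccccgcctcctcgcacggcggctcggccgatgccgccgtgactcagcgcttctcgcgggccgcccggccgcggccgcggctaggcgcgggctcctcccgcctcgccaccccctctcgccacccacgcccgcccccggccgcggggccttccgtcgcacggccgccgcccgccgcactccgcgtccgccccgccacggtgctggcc

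Of the 31 genes, 25 had a promoter entry (250 bases before to 50 after the start). CCAAT was found on either strand in 19 of 25 (76%), against 37.5% of all 33469 promoters and 37.7% of the 9832 promoters that matched a tested gene. It was found in 7 of the 10 genes that rose and had an entry and in 12 of the other 15. The GC box GGGCGG was found in 18 of 25 (72%, against 33.1% and 58.0%), the E-box CACGTG in 4 (16%, against 6.42% and 8.95%), and ACGTG, the core of the hypoxia response element, in 7 (28%, against 19.3% and 24.2%). ACGTG lies within CACGTG, so each match of CACGTG is also one of ACGTG. The sterol response element was searched for only in a fixed spelling that ends in CACCCCAC. Neither this spelling nor its part CACCCCAC was found in these windows. Of all promoters, 0.125% and 2.70% held them, and of those of tested genes, 0.020% and 2.52%. Other spellings of the element were not searched for, so these counts do not show whether the promoters hold such an element. A match is a description of the letters in the window only.

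From lanosterol to cholesterol, Dhcr7 (the reductase of the last step), Sc4mol (the oxygen-consuming C4-methyl oxidase) and Hsd17b7 (the ketoreductase of C4 demethylation) were higher in hypoxia. Dhcr7 had ratios of -0.29, 0.18, 0.50 and 0.86 in saline rats and of -0.01, 0.90, 0.68 and 0.59 in cobalt rats. Both 6 h arrays were below 0, and the mean was 0.43 ± 0.13 (SE; adjusted p = 0.0329). Sc4mol had ratios of -0.45, -0.24, 0.47 and 0.62 in saline rats and of 0.31, 0.99, 0.64 and 0.58 in cobalt rats. The negative arrays were saline 6 and 12 h, and the mean was 0.36 ± 0.12 (SE; adjusted p = 0.0465). Hsd17b7 was above 0 on all 8 arrays, with ratios of 0.19, 0.14, 0.14 and 0.57 in saline rats and of 0.07, 0.24, 0.35 and 0.12 in cobalt rats. The groups overlapped, and its mean was 0.23 ± 0.06 (SE; adjusted p = 0.0131), or 0.76 with the software's own log ratios. Nsdhl (a C4-decarboxylating dehydrogenase; -0.07 to 0.40, mean 0.19) and Sc5d (the C5 desaturase; -0.54 to 0.68, mean 0.10) did not pass the test. The mean of Sc5d was -0.03 with median centring.

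Of the genes that control the pathway, Insig1, itself a target of the SREBPs, was higher. Its ratios were 0.07, -0.00, 0.48 and 0.59 in saline rats and 0.18, 0.83, 0.39 and 0.16 in cobalt rats. The groups overlapped, and the mean was 0.34 ± 0.09 (SE; adjusted p = 0.0220), and the call rested on 1 of 4 probes: the other 3 gave 0.23, 0.25 and 0.19 (adjusted p = 0.121, 0.0690 and 0.200 over all probes). Srebf1 was lower, with ratios of -0.99, -0.86, -0.83 and -0.50 in saline rats and of -0.14, 0.48, -0.16 and -0.14 in cobalt rats. The fall lay in the saline arrays, all of which were below all cobalt arrays; with median centring it lay in the cobalt arrays instead, where the mean was -0.98 against 0.16 in saline rats. The mean of both was -0.39 ± 0.08 (SE; adjusted p = 0.00682), and a second probe, printed at 10 spots, gave -0.43. Srebf2 was lower by a small amount, with ratios of -0.15, -0.27, -0.30 and 0.02 in saline rats and of -0.17, -0.16, -0.03 and -0.12 in cobalt rats. The only array above 0 was saline 48 h, and the mean was -0.15 ± 0.05 (SE; adjusted p = 0.0410). With the software's own log ratios it was -0.31 and did not pass (adjusted p = 0.0738). Insig2 had ratios of 0.25, 0.38, 0.39 and 0.48 in saline rats and of -0.24, -0.11, 0.06 and 0.17 in cobalt rats. With this probe all saline arrays lay above all cobalt arrays, and the mean, 0.17, did not pass the test. With its second probe, which gave -0.04, the groups overlapped, since saline 12 h was at -0.24. Scap was above 0 on all arrays (0.03 to 0.42, mean 0.14) and did not pass the test.

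**Figure D2:**
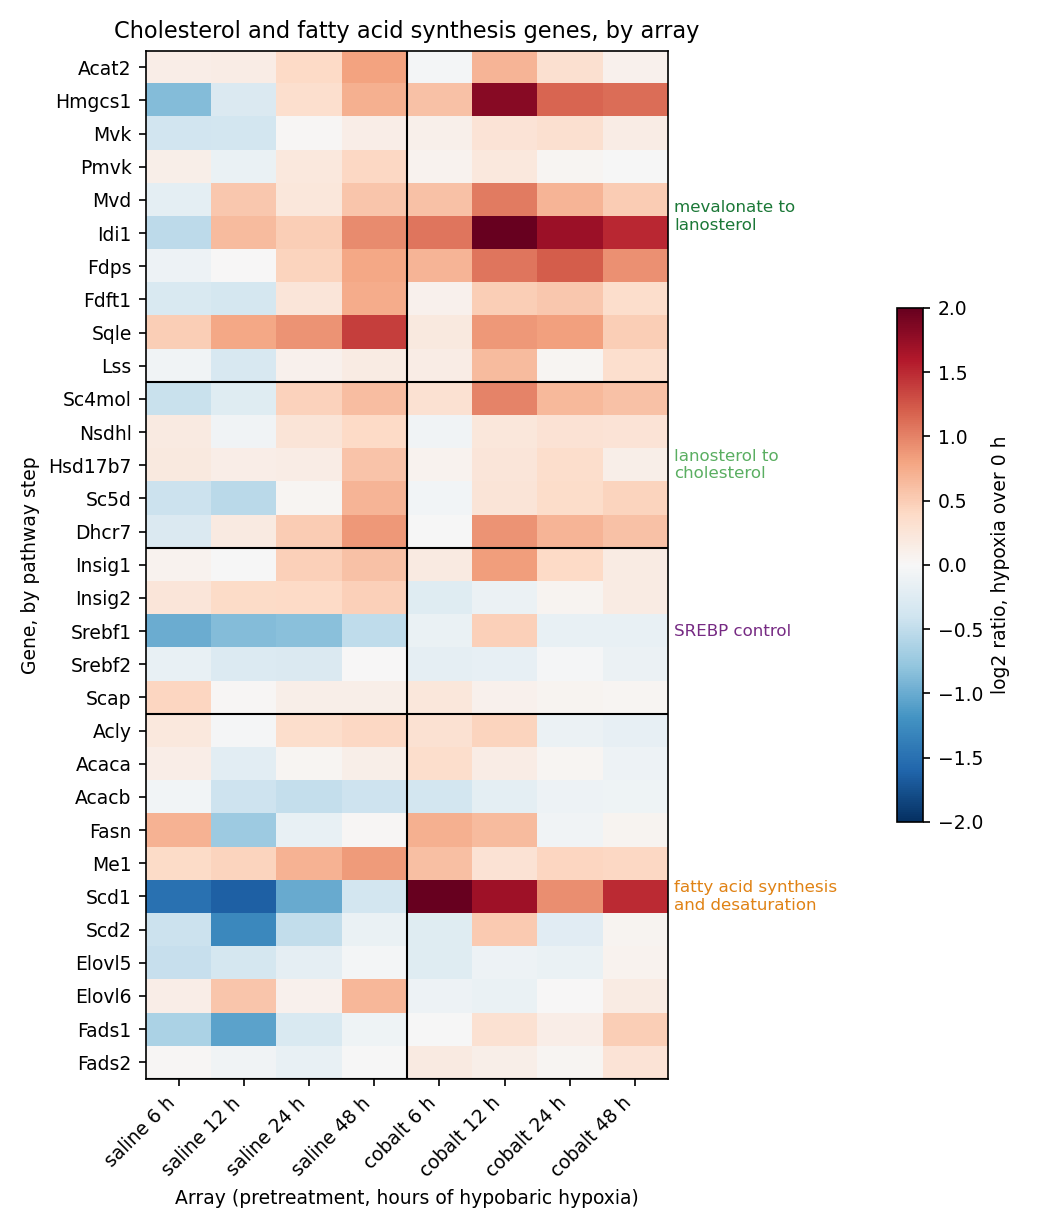
Log2 ratio of hypoxia over 0 h (colour, from -2 in blue to 2 in red) of 31 genes (rows, by pathway step) on 8 arrays (columns, by pretreatment and hours). Most sterol genes in the upper rows turn from blue or pale at 6 h to red at 48 h in saline rats, while Mvk and Lss stay pale there. In cobalt rats the sterol genes are reddest at 12 h or 24 h, except Sc5d at 48 h. Scd1 is blue on all saline and red on all cobalt arrays.

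Of the 11 fatty acid genes, 1 was higher and 2 lower in the mean of both pretreatments (15.7% and 16.3% of all genes tested), with a median of 0.06. In saline rats 2 were higher and 5 lower (21.8% and 18.3% of all genes). In cobalt rats 2 were higher and 0 lower (8.53% and 12.3%). Me1 (malic enzyme, a source of NADPH) was above 0 on all 8 arrays, with ratios of 0.38, 0.44, 0.69 and 0.86 in saline rats and of 0.61, 0.30, 0.44 and 0.42 in cobalt rats. The groups overlapped, its mean was 0.52 ± 0.07 (SE; adjusted p = 0.000560), the lowest p of the set, and its second probe gave 0.43. That second probe was at -0.04 on the cobalt 12 h array. It did not pass in cobalt rats (0.19, adjusted p = 0.191 over all probes). Acacb (the mitochondrial acetyl-CoA carboxylase) was the only gene of the set below 0 on all 8 arrays (6.09% of all genes), with ratios of -0.06, -0.42, -0.47 and -0.42 in saline rats and of -0.36, -0.20, -0.10 and -0.09 in cobalt rats. It was dim: its hypoxia signal was well above background on 1 of 4 saline and 1 of 4 cobalt arrays and its 0 h signal on 3 and 4, so it would not have passed the filter through the hypoxia channel. A gene that passes in this way has to be higher at 0 h, so its call is no support for a fall, and its mean, -0.26 here and -1.66 with the software's own log ratios, is not a measured size. Elovl5 (an elongase of polyunsaturated fatty acids) had ratios of -0.46, -0.36, -0.17 and -0.04 in saline rats and of -0.24, -0.10, -0.13 and 0.08 in cobalt rats. Every array but cobalt 48 h lay below 0, and the mean was -0.18 ± 0.06 (SE; adjusted p = 0.0347), or -0.57 with the software's own log ratios.

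The enzymes that carry carbon into palmitate did not pass the test in any comparison of hypoxia with 0 h. Acly (ATP citrate lyase) ranged from -0.16 to 0.44 (mean 0.18), Acaca (the cytosolic acetyl-CoA carboxylase) from -0.21 to 0.35 (mean 0.06, and -0.11 in a second, dimmer probe), and Fasn (fatty acid synthase) from -0.73 to 0.71 (mean 0.15). The extremes of Fasn were the saline 12 h and the cobalt 6 h array. Fads2 (the delta-6 desaturase) ranged from -0.15 to 0.28 (mean 0.05). Elovl6 (the elongase of palmitate) had ratios of 0.14, 0.56, 0.09 and 0.67 in saline rats and of -0.10, -0.14, 0.01 and 0.16 in cobalt rats. Its groups overlapped, and its mean of 0.17 did not pass the test. A second, dimmer probe of Elovl6 gave -0.03.

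Scd1 (stearoyl-CoA desaturase, an oxygen-consuming enzyme that makes monounsaturated fatty acids) moved in opposite directions under the pretreatments. Its ratios were -1.50, -1.64, -1.01 and -0.37 in saline rats and 2.00, 1.70, 0.92 and 1.49 in cobalt rats. All saline arrays were below 0 and all cobalt arrays above 0, so that its mean of both, 0.20, did not pass the test. Scd2, a related desaturase, had ratios of -0.43, -1.29, -0.50 and -0.13 in saline rats and of -0.24, 0.53, -0.23 and 0.05 in cobalt rats. The groups overlapped, its mean was -0.28, and its 3 probes ranged from -0.57 to 0.01. Fads1 (the delta-5 desaturase) had ratios of -0.63, -1.07, -0.31 and -0.08 in saline rats and of -0.01, 0.30, 0.13 and 0.49 in cobalt rats. All cobalt arrays lay above all saline arrays, and the mean was -0.15.

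Within the pretreatments, where a dye bias does not cancel, 11 of the 31 genes passed the test in saline rats, 5 higher and 6 lower (40.1% of all genes tested, 21.8% higher and 18.3% lower). The higher genes were Sqle (0.89 ± 0.15, SE), Me1 (0.59 ± 0.09), Insig2 (0.38 ± 0.09), Elovl6 (0.36 ± 0.11) and Hsd17b7 (0.26 ± 0.08). The lower genes were Scd1 (-1.13 ± 0.21), Srebf1 (-0.80 ± 0.12), Scd2 (-0.59 ± 0.18), Fads1 (-0.52 ± 0.15), Elovl5 (-0.26 ± 0.08) and Acacb (-0.34), for which the filter on dim probes applies as above. In cobalt rats 8 passed, all higher (20.8% of all genes tested, 8.53% higher and 12.3% lower): Idi1 (1.57 ± 0.21), Scd1 (1.53 ± 0.21), Hmgcs1 (1.17 ± 0.24), Fdps (0.97 ± 0.14), Mvd (0.70 ± 0.13), Sc4mol (0.63 ± 0.17), Sqle (0.60 ± 0.15) and Me1 (0.44 ± 0.09). Without the saline 12 h array the saline count was 7, and without the cobalt 12 h array the cobalt count was 5. Median centring leaves any trend of the ratios with intensity in place. It turned these counts to 21 higher and 1 lower in saline rats and to 4 higher and 17 lower in cobalt rats. Of all genes tested, median centring called 59.1% and 80.4%. With it the saline means of Srebf1, Scd2 and Fads1 became 0.16, 0.67 and 0.21. The cobalt means of Fdps, Mvd, Sc4mol, Sqle and Me1 became -0.12, -0.17, -0.49, -0.24 and -0.58. Those of Scd1 kept their signs (-0.35 in saline and 0.64 in cobalt rats), and so did the cobalt means of Idi1 (0.62) and Hmgcs1 (0.14). By second probes, Insig2 (0.09, adjusted p = 0.433) and Elovl6 (0.03, adjusted p = 0.712) did not pass in saline rats with loess. Nor did another probe of Scd2 (-0.23, adjusted p = 0.0569). Other probes passed in saline rats for Idi1 (0.54, adjusted p = 0.0325) and Srebf2 (-0.40, adjusted p = 0.00160), where those used did not. So did, in cobalt rats, other probes of Insig1 (0.53 and 0.49, adjusted p = 0.0317 and 0.0304). These adjusted p are over all probes.

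The study asks how cobalt alters the response to hypoxia. Of the 31 genes, 7 differed between the pretreatments (30.2% of all genes tested), 6 with a higher response in cobalt rats (12.7%) and 1 with a lower (17.5%). The difference of cobalt minus saline was 2.66 ± 0.30 (SE; adjusted p = 0.000390) for Scd1, 1.20 ± 0.35 for Hmgcs1, 1.18 ± 0.30 for Idi1, 0.81 ± 0.17 for Srebf1, 0.75 ± 0.21 for Fads1, 0.69 ± 0.20 for Fdps and -0.41 ± 0.12 for Insig2, with adjusted p from 0.00658 to 0.0324 for these 6. With the probes used, the arrays of the pretreatments did not overlap for 6 of the 31 genes (31.9% of all genes), 5 genes higher in cobalt rats (Fads1, Fads2, Idi1, Scd1 and Srebf1; 13.1% of all genes) and for 1 higher in saline rats (Insig2; 18.8%). With median centring the difference was 1.00 for Scd1 and -1.38 for Insig2, and it turned to -0.82 for Hmgcs1, -0.63 for Idi1, -1.14 for Srebf1, -0.96 for Fads1 and -1.51 for Fdps. With a second probe the difference did not pass for Hmgcs1 (0.60, adjusted p = 0.108 over all probes), Idi1 (0.57, adjusted p = 0.1075), Fdps (0.43, adjusted p = 0.101) and Insig2 (-0.26, adjusted p = 0.139), and passed for Srebf1 (1.27, adjusted p = 0.000947). Second probes of Me1 (-0.47, adjusted p = 0.0289) and Srebf2 (0.46, adjusted p = 0.00649) passed where the probes used did not. So did a second probe of Fasn (0.64, adjusted p = 0.0438) and another probe of Scd2 (0.50, adjusted p = 0.0144). Scd1 and Fads1 have 1 probe each. The count of differing genes was 3 without the cobalt 12 h array and 4 without the cobalt 24 h, the cobalt 48 h or the saline 12 h array.

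**Figure D3:**
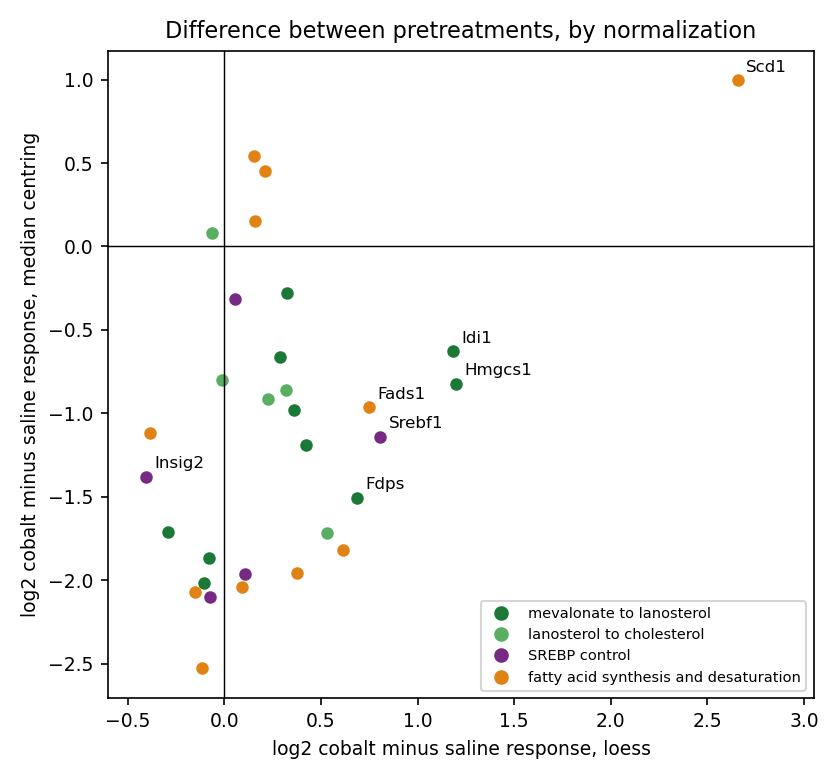
Cobalt minus saline response (log2) of 31 genes, with loess normalization (horizontal axis) and with arrays centred on their median (vertical axis), coloured by pathway step; the 7 genes that passed the test with loess are named. Scd1 lies above 0 on both axes (2.66 and 1.00), while Hmgcs1, Idi1, Fdps, Srebf1 and Fads1 lie above 0 on the horizontal axis and below 0 on the vertical.

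Set out by channel, the pretreatments lay further apart at 0 h than in hypoxia for Scd1, Idi1, Hmgcs1, Srebf1 and Fdps. For Fads1 and Insig2 they lay further apart in hypoxia. These levels rest on the loess ratios, and the dye of each channel also differs between the pretreatments. The 0 h level of Scd1 was 11.1 ± 0.18 (SD, n = 4 arrays, log2 intensity) in saline and 8.97 ± 0.10 in cobalt rats, and its hypoxia level was 10.0 ± 0.41 and 10.5 ± 0.44. The 0 h level of Idi1 was 10.9 ± 0.07 in saline and 9.63 ± 0.21 in cobalt rats, and its hypoxia levels were 11.3 ± 0.61 and 11.2 ± 0.55. Fads1 lay at 10.6 in saline and 10.8 in cobalt rats at 0 h, and at 10.0 and 11.0 in hypoxia. Insig2 lay at 8.06 and 8.17 at 0 h, and at 8.44 and 8.14 in hypoxia. The labels give the 4 arrays of a pretreatment the same 0 h control, so the SDs at 0 h are not a spread between animals. Levels averaged over both channels, in which slide and scan remain, differed for 12 of the 31 genes, 5 higher and 7 lower in cobalt rats (45% of all genes tested, 21.8% higher and 23.2% lower). The lower ones included Scd1 (-0.84 ± 0.13, SE), Mvd (-0.74 ± 0.15), Srebf1 (-0.73 ± 0.15), Idi1 (-0.68 ± 0.19) and Acly (-0.67 ± 0.09). The higher ones included Fads1 (0.61 ± 0.14), Srebf2 (0.53 ± 0.08) and Nsdhl (0.44 ± 0.09).

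The duration with the highest ratio was counted for the sterol enzymes in each pretreatment; no gene passed a test of the difference in late minus early values between the pretreatments, as given after these counts. In saline rats all 15 had their highest ratio at 48 h, a duration at which 25.5% of all genes tested and 26 of the 31 genes of the set were highest. The other 5 of the 31 were highest at 6 h (30.4% of all genes), and none of the 31 at 12 or 24 h (25.9% and 18.1%). The median of the 15 was -0.19 at 6 h, -0.06 at 12 h, 0.26 at 24 h and 0.68 at 48 h. In cobalt rats 9 of the 15 were highest at 12 h and 5 at 24 h (22.5% and 16.5% of all genes), and 1, Sc5d, at 48 h (27.9%). Their median there was 0.10, 0.68, 0.54 and 0.45 at 6, 12, 24 and 48 h. Under 6 other ways to process the arrays, 14 or 15 of the 15 were highest at 48 h in saline rats, and 23 to 27 of the 31, with up to 3 of the 31 at 12 or 24 h. In cobalt rats 6 to 10 of the 15 were highest at 12 h, and 13 to 15 at 12 or 24 h. These counts were made after the values had been seen, and each duration is 1 array per pretreatment.

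**Figure D4:**
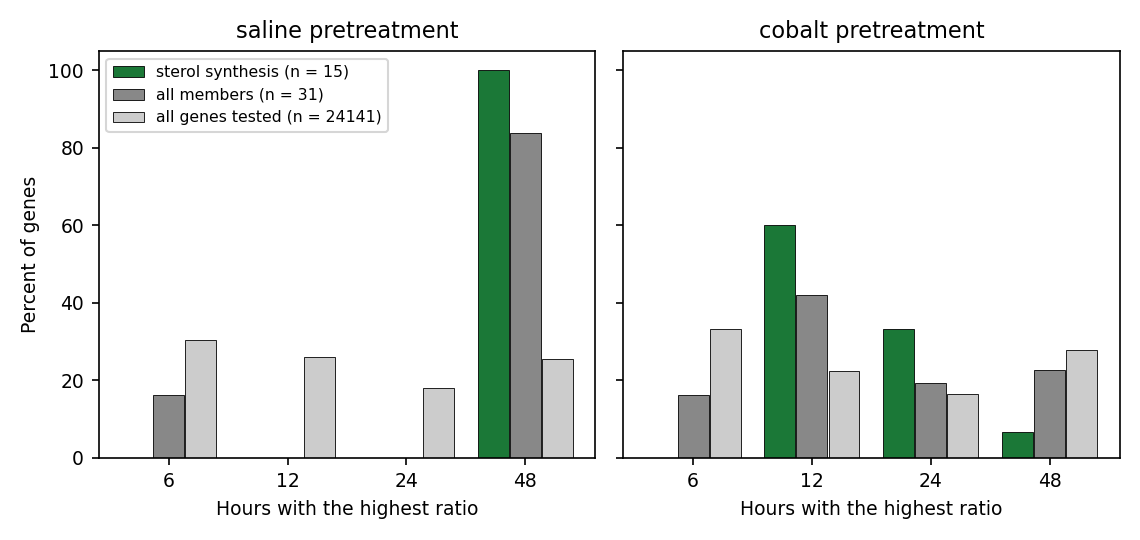
Percent of genes (vertical axis) whose ratio was highest at each duration (horizontal axis), for 15 sterol synthesis genes, all 31 genes of the set and all 24141 genes tested, by pretreatment. All 15 sterol genes were highest at 48 h in saline rats, and 9 were highest at 12 h in cobalt rats.

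Late (24 and 48 h) minus early (6 and 12 h) ratios were tested in limma too, since the 0 h RNA, the slide and the dyes of a pretreatment cancel in them. With 2 arrays on each side, 0 of the 31 genes passed in saline rats, in cobalt rats, in their mean or in the difference between them, and so did 0% of all genes tested in each. At an unadjusted p under 0.05, 12 of the 31 were higher late in saline rats and 0 lower (5.52% and 4.66% of all genes). In cobalt rats 0 were higher and 2, Acly and Scd1, lower (3.09% and 5.1%). In the mean of both, where 23 of the 31 lay above 0 (46.7% of all genes), 7 were higher and 0 lower by that p (6.46% and 6.42%), and in the difference, 0 were higher and 4 lower (2.4% and 3.03%). The 12 in saline rats were Sc4mol (0.89 ± 0.22, SE), Sc5d (0.84 ± 0.23), Fdft1 (0.82 ± 0.22), Hmgcs1 (1.1 ± 0.38), Dhcr7 (0.74 ± 0.31), Fdps (0.66 ± 0.19), Mvk (0.45 ± 0.15), Scd1 (0.88 ± 0.26), Fads1 (0.65 ± 0.21), Elovl5 (0.30 ± 0.12), Me1 (0.36 ± 0.15) and Insig1 (0.50 ± 0.21).

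In saline rats all 15 sterol enzymes had a late minus early value above 0, with a median of 0.51, and both late arrays lay above both early ones for 12 of them (20 of the 31 genes; 18.3% of all genes). In cobalt rats 9 of the 15 were above 0, with a median of 0.07, and both late arrays lay above both early ones for 2, Nsdhl and Sc5d (6 of the 31 genes; 22.7% of all genes). The cobalt value was below the saline value for all 15, by a median of -0.53, and none of these differences passed the test. Values above 0 were found for 48.6% of all genes in saline rats, 47.5% in cobalt rats and 47.4% in the difference. Acly and Scd1 fell late in cobalt rats by unadjusted p (-0.51 ± 0.14 and -0.64 ± 0.26, SE) and lay at 0.29 ± 0.14 and 0.88 ± 0.26 in saline rats.

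**Figure D5:**
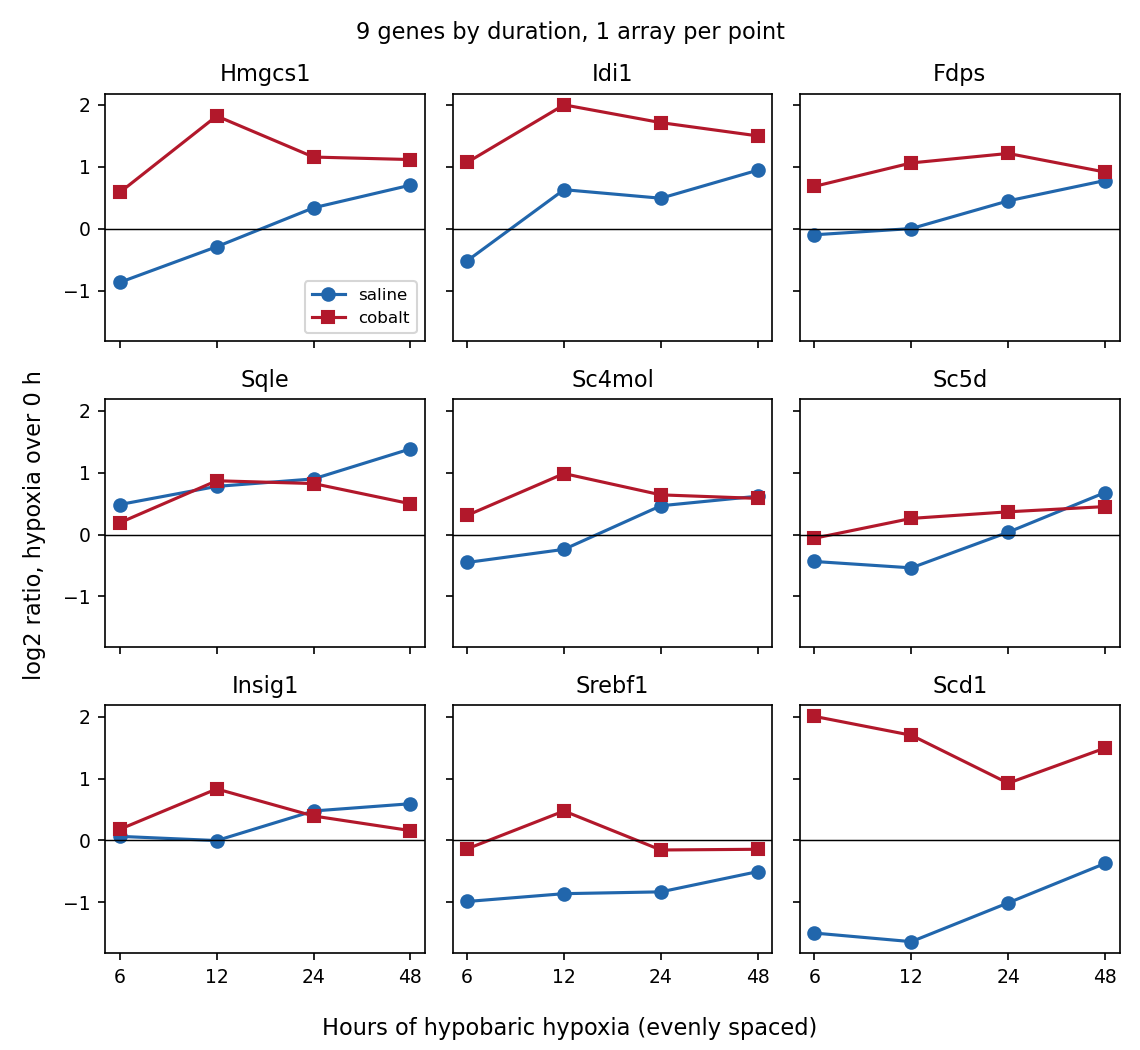
Log2 ratio of hypoxia over 0 h (vertical axis) by hours of hypoxia (horizontal axis, evenly spaced) for 9 genes, with saline rats as blue circles and cobalt rats as red squares, 1 array per point and no error bar. Hmgcs1, Sc4mol, Sc5d and Fdps climbed to 48 h in saline rats, Hmgcs1, Idi1 and Insig1 were highest at 12 h in cobalt rats, and the Scd1 lines lie on opposite sides of 0.

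Of 11 other genes of sterol synthesis tested, 4 were higher in the mean of both pretreatments and 0 lower, with a median of 0.16. They included Cyp51 (lanosterol demethylase; 0.54 ± 0.10, SE) and Tm7sf2 (a sterol C14 reductase; 0.53 ± 0.10). Of 11 genes that process the SREBPs or sense sterols, 0 were higher and 2 lower, among them Mbtps1 (the site-1 protease that cuts SREBPs; -0.51 ± 0.07), and Erlin2 lay at 0.11 ± 0.04 without passing. Of 12 genes of sterol efflux and the sterol sensor LXR, 1 was higher, Ch25h (cholesterol 25-hydroxylase; 0.75 ± 0.09), and 5 were lower, among them the exporter Abcg1 (-0.58 ± 0.07) and Cyp27a1 (sterol 27-hydroxylase; -0.49 ± 0.08). The shares called in these lists were, in order, 36.4%, 18.2% and 50%, against 32% of all genes tested.

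Of 10 genes that supply acetyl-CoA or NADPH, 2 were higher, Aacs (acetoacetyl-CoA synthetase; 0.28 ± 0.07, SE) and Pdk1 (a pyruvate dehydrogenase kinase; 0.26 ± 0.08), and 1 was lower, Mlycd (malonyl-CoA decarboxylase; -0.17 ± 0.05). Of 12 genes of fatty acid elongation and activation, Mlx (0.20 ± 0.07) and Mlxipl (0.11 ± 0.04), partners in a carbohydrate-responsive transcription factor, were higher and Acsl1 (an acyl-CoA synthetase; -0.38 ± 0.08) was lower. Of 12 genes of triglyceride and phospholipid synthesis, Dgat2 (0.41 ± 0.14) was higher and Lpcat1 (an enzyme of surfactant phospholipid; -0.29 ± 0.09) lower, and Gpam lay at 0.21 ± 0.08 without passing. Of 10 genes of lipid uptake and droplets, 3 were higher, Lipe (0.50 ± 0.08), Fabp5 (0.41 ± 0.09) and Fabp4 (0.75 ± 0.17), and 1 was lower. The shares called in these lists were, in order, 30%, 25%, 16.7% and 40%, against 32% of all genes tested.

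Markers of cell types moved too, and their part in the results above was not tested. Of 10 type II cell markers, 8 were lower and 0 higher in saline rats (median -0.63, array medians -0.92 to -0.35), and 3 were higher and 0 lower in cobalt rats (median 0.10, array medians 0.03 to 0.24). Scd1 had the same signs. In the mean of both 5 were lower, led by Etv5 (-0.48 ± 0.07, SE), Slc34a2 (-0.31 ± 0.08) and Sftpa1 (-0.19 ± 0.06). Of 8 smooth muscle markers, 7 were higher in the mean, led by Des (2.02 ± 0.08), Actg2 (1.76 ± 0.08) and Tpm2 (1.45 ± 0.09). Of 6 adipocyte markers tested, Retn (1.41 ± 0.35), Cfd (0.72 ± 0.14) and Lipe were higher, while Adipoq, which defines fat cells, lay at 0.02 ± 0.04, and Plin1 and Lep did not pass the filter. Of 8 macrophage markers, Chi3l1 (0.76 ± 0.15) was higher and Csf1r (-0.60 ± 0.13) and Fcgr3a (-0.37 ± 0.11) lower. Of 8 fibroblast markers, Pdgfrb (0.30 ± 0.09) was higher, and Col3a1 (-0.42 ± 0.15) and Tcf21 (-0.20 ± 0.10) did not pass. The shares called in the mean were, in the order of these cell types, 50%, 87.5%, 50%, 37.5% and 12.5%. Of all genes tested, 32% were called in the mean, 40.1% in saline rats and 20.8% in cobalt rats.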

How the data were processed

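Per the file headers, Agilent Feature Extraction 9.5.1.1 produced the scanner output, in which each spot has a mean signal and a local background, given as intensity. Its deposited LogRatio is a log10 ratio of the red to the green channel, corrected by that software for background and dye. The deposited series matrix holds log2 ratios, a scale and direction found from the values, with a median of 0 in every column.

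Intensities were corrected by normexp (offset 50), normalized by loess within arrays and tested in limma 3.58.1 (R 4.3.3) with a variance trend. Outlier spots were dropped, and spots of a probe averaged. Probes stayed in if 1 of their channels was well above background on 4 or more of the 8 arrays (28419 probes), and the brightest stood for its gene. RefSeq gene names gave a current symbol to 10735 of 41012 probes through their accession, to 5577 through their symbol and to 3730 through a synonym. An adjusted p under 0.05 was called. The alternatives were 12 other processing choices and leaving out each array. Scripts were tested on simulated data with 200 changed genes. Members, gene lists and tests were chosen with earlier results of these data known. Genes given by name are all members, and of each other list the 3 with the lowest p in the mean of both pretreatments, except 2 genes that are counted but not reported here. The number of arrays limits the precision.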

Additional observations from a re-analysis of the deposited data

Results flagged for a closer look

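The response to hypoxia differed between cobalt and saline rats for 7 of the 31 genes (22.6%), by limma's test of the difference (adjusted p under 0.05), against 30.2% of all genes tested. The log2 difference of cobalt minus saline was 2.66 for Scd1, 1.20 for Hmgcs1, 1.18 for Idi1, 0.81 for Srebf1, 0.75 for Fads1, 0.69 for Fdps and -0.41 for Insig2. With arrays centred on their median the sign turned for Hmgcs1, Idi1, Srebf1, Fads1 and Fdps. With a second probe the difference did not pass for Hmgcs1, Idi1, Fdps and Insig2. Pretreatment, slide and dye orientation cannot be told apart in them. No group of the labels holds more than 1 array, so no array could be compared with others of its group.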

How the results depend on the processing

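The number of genes called was recounted under 12 other processing choices and with each array left out; the level of both channels could not be had from the series matrix, nor late minus early with duration as a factor. Centring each array on its median, without loess, moved it to 22 in saline rats (21 higher), 21 in cobalt rats (4 higher) and 27 for cobalt minus saline (3 higher). It turned the sign of that difference, where either value passed the test, for 16 genes: Acaca (-2.04), Dhcr7 (-0.91), Fads1 (-0.96), Fasn (-1.96), Fdft1 (-0.66), Fdps (-1.51), Hmgcs1 (-0.82), Idi1 (-0.63), Insig1 (-1.96), Mvd (-1.19), Mvk (-0.98), Sc4mol (-1.72), Sc5d (-0.86), Scd2 (-1.82), Srebf1 (-1.14) and Srebf2 (-0.32); dyes were swapped between the pretreatments, and the cause was not tested. Of all genes, it called 59.1% in saline rats, 80.4% in cobalt rats and 78.9% for the difference. For the mean of both pretreatments it called 14 of the 31 genes (11 higher) and 47.4% of all genes. The other choices kept every count within 1.5 times, but not every value: with the software's log ratios the mean of both went from -0.26 to -1.66 for Acacb, from -0.18 to -0.57 for Elovl5, from 0.23 to 0.76 for Hsd17b7 and from -0.15 to -0.31 for Srebf2. Leaving out 1 array gave 8 to 15 genes for the mean of both pretreatments, 7 to 12 in saline rats, 5 to 10 in cobalt rats, 3 to 7 for their difference, 10 to 11 for the level of both channels, and 0 to 0 for late minus early. The counts of genes highest at 48 h in saline and at 12 h in cobalt rats, chosen after seeing the data, moved by no more than 1.5 times under 6 choices; the count at 12 or 24 h in saline rats went from 0 to as many as 3 of 31. Each group has 1 array, so replicate numbers pair nothing; a fit with a term for each duration joined the arrays that share one, and there the call of Srebf2 in the mean of both was lost, and no other call of that mean.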
